A study of Mus musculus with 9 samples.

Results

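Lungs of hypoxic mice given parathyroid hormone (PTH) were compared with lungs of mice in room air. The comparison takes the 3 samples titled PTH hypoxia (replicates 3, 4 and 5) and the 3 titled WT normoxia (replicates 2, 3 and 5), 6 of the 9 samples of the series, and describes them across all expressed genes. The study sequenced poly(A) RNA of whole lung, with a directional library kit. The group called hypoxia with PTH here was C57BL/6 mice housed for 3 weeks in a chamber at 10% oxygen and injected with PTH 1-34, the active N-terminal peptide of the hormone, at 40 µg/kg per day. The 3 samples titled WT hypoxia (replicates 1, 2 and 5) were C57BL/6 mice at 10% oxygen without PTH, and their values are set beside the others. Normoxia was C57BL/6 mice in room air. The labels also name a saline sham group without saying which samples it held, so an effect of injection and an effect of the hormone cannot be told apart. Age and sex are not given in the labels. Nothing in the labels ties each sample to its own animal. The p-values therefore reflect spread among samples that may be technical.

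Chronic hypoxia in mice is a standard model of pulmonary hypertension, in which small pulmonary arteries thicken, matrix is laid down around vessels and the capillary endothelium is remodelled. PTH acts on its receptor PTH1R, a G protein-coupled receptor best known in bone and kidney, which signals mainly through cyclic AMP. Hypoxia-inducible factors bind a short DNA core, the hypoxia response element, and CREB, a transcription factor activated by cyclic AMP, binds the cyclic AMP response element. Both conditions differed between these groups, so a difference from normoxia holds the effects of oxygen, of PTH and of injection together.

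Totals ran from 41619965 to 44181821 counts in the PTH libraries and from 46932520 to 58391086 in the normoxia libraries. The club cell gene Scgb1a1 was the largest gene of every library, and the alveolar type 2 gene Sftpc stood at 13052, 13145 and 14644 CPM in the PTH libraries and 11766, 13054 and 10449.8 CPM in the normoxia libraries, so lung markers were present in all. Levels are CPM (counts scaled to library size with TMM factors), in the order of the replicate numbers above. Libraries differed in clock phase: Dbp, a clock output gene, was at 10.4, 16.5 and 6.13 CPM with PTH, 316, 197 and 13.9 CPM in hypoxia and 197, 159.5 and 6.85 CPM in normoxia, so normoxia replicates 2 and 3 stood high and normoxia replicate 5 low with the 3 PTH libraries. They also differed in heart muscle and fat RNA. Myh6, a cardiac myosin gene, was at 218, 203 and 6.86 CPM with PTH and 333, 196 and 107 CPM in normoxia, and Adipoq, a fat cell gene, at 0.331, 1.43 and 0.0947 CPM with PTH and 11.3, 0.414 and 0.780 CPM in normoxia, with PTH replicate 5 lowest of all in both.

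**Figure D1:**
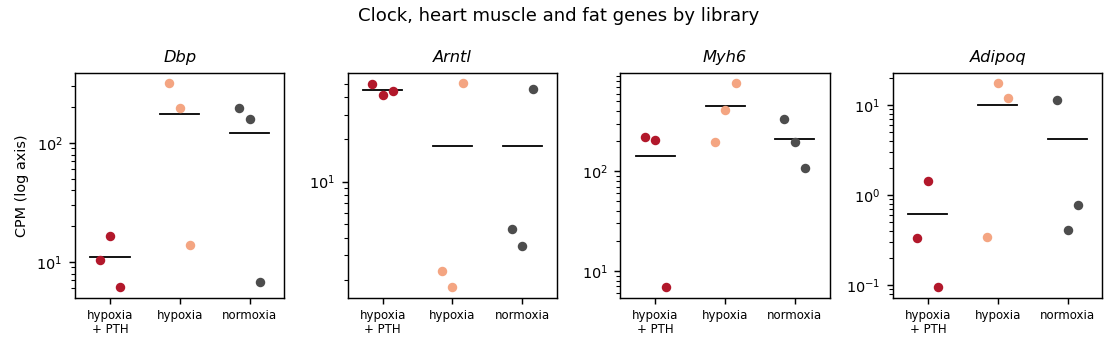
CPM (log axis) of Dbp and Arntl, 2 clock genes, and of Myh6 and Adipoq, genes of heart muscle and fat, in each library, with dots in the order of replicate number within each group (hypoxia with PTH, hypoxia, normoxia) and bars at the group means. Dbp was low in all 3 PTH libraries and in normoxia replicate 5, and high in normoxia replicates 2 and 3.

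Of 19640 genes tested, 341 were called changed between hypoxia with PTH and normoxia (edgeR quasi-likelihood test, Benjamini-Hochberg adjusted p under 0.05), which is 1.74% of the genes. The calls were 249 higher (1.27%) and 92 lower (0.468%), and 154 of them had an absolute log2 fold change of 1 or more, 111 upward and 43 downward. The matrix genes Mfap4 and Fn1, the receptor gene Ntrk2 and the chemokine gene Cxcl12 were among the higher ones, and the endothelial genes Plvap, Esm1, Cx3cl1 and Dll4 among the lower ones. In each of the 341 the 3 PTH libraries lay wholly above or wholly below the 3 normoxia libraries, as 22.8% of all genes tested did, 11.4% above and 11.4% below. At an unadjusted p under 0.05 stood 3378 genes (17.2%). DESeq2 called 786 higher and 636 lower. The median log2 fold change was 0.94 among the higher calls, -0.97 among the lower calls and -0.01 over all genes tested.

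The number of calls depended on single libraries. Without normoxia replicate 2 it was 81, without normoxia replicate 3 it was 84, without PTH replicate 5 it was 83 and without PTH replicate 4 it was 186. With a clock score as a covariate 76 genes were called, with a muscle and fat score 151, and with both clock-shifted libraries, normoxia replicates 2 and 3, left out 4 were called, with 1 normoxia library assumed to vary like the other groups. Those 4 were Slc26a10, Mfap4, Ccl21a and Fmo1. Of 91 genes named by rule, 26 were called with each of the 9 libraries left out in turn, 15 higher and 11 lower. Of the 26, 25 were also called with the clock score and 26 with the muscle and fat score. With the replicate number as a block, 9 of the 26 were called. The other 65 of the 91 lost their call without at least 1 library. For each such gene below, the libraries are named with the highest adjusted p that leaving 1 out gave.

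**Figure D2:**
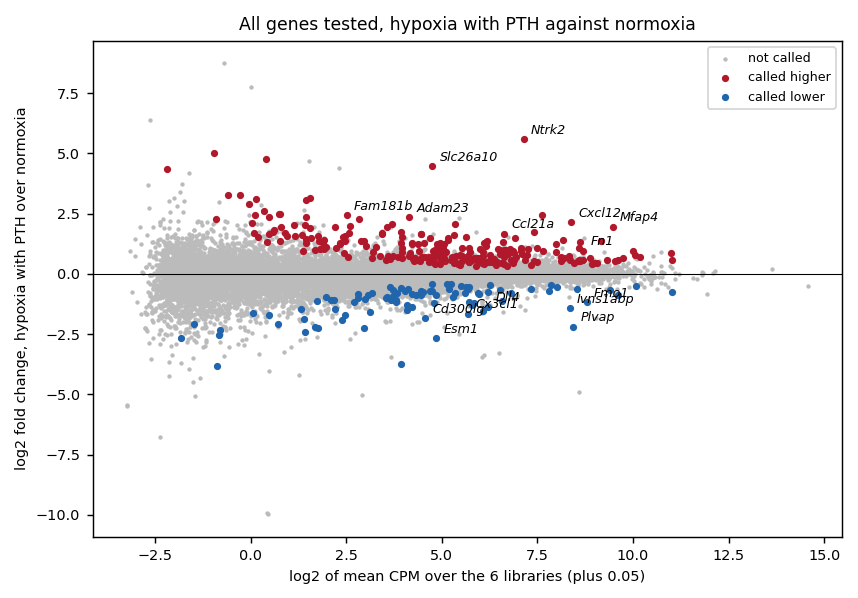
Log2 fold change of hypoxia with PTH over normoxia (vertical) against the log2 of the mean CPM over the 6 libraries (horizontal), with 1 point for each of 19640 genes, red for the 249 called higher and blue for the 92 called lower. Named are some of the genes whose call stood with each library left out. Ntrk2 and Slc26a10 stand far above the other higher calls at their level.

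Promoters of 4 of the 26 genes, the 2 largest rises and 2 largest falls among those with 1 promoter entry, are printed to show the sequence at genes that moved far with oxygen and PTH. They run from 250 bases before to 50 bases after the RefSeq start on GRCm38.p6 (mm10), 5′ to 3′ on the gene's strand, at chr13:58806319-58806618 (plus) for Ntrk2, chr10:127180533-127180832 (minus) for Slc26a10, chr13:113209409-113209708 (plus) for Esm1 and chr8:94771930-94772229 (plus) for Cx3cl1. Capitals mark the core of the hypoxia response element, ACGTG or GCGTG on either strand. Ntrk2 held 3 matches, Esm1 held 1, and Slc26a10 and Cx3cl1 held 0. None of the 4 held the cyclic AMP response element TGACGTCA or CACGTG, the E-box that overlaps ACGTG.
Ntrk2: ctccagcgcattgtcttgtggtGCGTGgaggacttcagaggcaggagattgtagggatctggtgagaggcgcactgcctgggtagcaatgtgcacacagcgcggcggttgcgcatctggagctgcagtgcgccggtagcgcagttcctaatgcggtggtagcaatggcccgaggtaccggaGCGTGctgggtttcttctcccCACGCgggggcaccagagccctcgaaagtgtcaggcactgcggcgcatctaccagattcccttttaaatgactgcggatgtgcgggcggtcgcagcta
Slc26a10: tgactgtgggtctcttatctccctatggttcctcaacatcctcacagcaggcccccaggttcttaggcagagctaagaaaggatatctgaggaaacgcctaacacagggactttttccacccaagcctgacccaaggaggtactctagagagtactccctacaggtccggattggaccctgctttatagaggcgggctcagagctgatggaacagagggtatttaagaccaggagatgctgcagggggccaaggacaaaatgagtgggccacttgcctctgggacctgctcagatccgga
Esm1: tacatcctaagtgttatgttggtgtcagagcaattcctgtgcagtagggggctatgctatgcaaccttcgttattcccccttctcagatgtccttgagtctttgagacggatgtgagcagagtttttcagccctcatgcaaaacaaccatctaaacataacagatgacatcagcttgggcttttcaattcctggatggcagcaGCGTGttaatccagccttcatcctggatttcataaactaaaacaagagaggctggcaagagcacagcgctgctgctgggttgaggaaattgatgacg
Cx3cl1: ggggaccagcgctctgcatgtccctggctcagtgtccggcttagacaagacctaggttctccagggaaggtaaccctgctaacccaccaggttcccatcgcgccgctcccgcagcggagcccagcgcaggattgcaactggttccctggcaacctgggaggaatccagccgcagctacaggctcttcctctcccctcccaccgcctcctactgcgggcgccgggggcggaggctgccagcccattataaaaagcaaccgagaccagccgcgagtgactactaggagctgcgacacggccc

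Among all 32851 promoters in the table, 43.8% held the hypoxia core and 1.79% held TGACGTCA. Among the 12975 promoters of genes tested, the shares were 58.9% and 2.89%. Genes called higher had 172 promoters, with shares of 47.1% and 2.33%, and genes called lower had 66, with shares of 54.5% and 0%. A match is a run of letters in this window only.

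Ntrk2 and Slc26a10 had the largest rises among called genes with a group mean of at least 5 CPM. Ntrk2 (ENSMUSG00000055254, mm10 chromosome 13, 58806569 to 59133970, plus strand) encodes TrkB, the receptor for the neurotrophin BDNF. It stood at 355, 175 and 298 CPM in hypoxia with PTH, 269, 173 and 187 CPM in hypoxia and 6.18, 4.44 and 6.55 CPM in normoxia. Every library of both hypoxic groups stood far above every normoxia library. Its log2 fold change was 5.59 (SE 0.33, edgeR adjusted p = 1.76e-04). The ligand gene Bdnf was at 24.2, 24 and 21.7 CPM with PTH and 28.9, 24.6 and 31.3 CPM in normoxia and was not called (log2 fold change -0.28, edgeR adjusted p = 0.318). Of 11 neurotrophin genes tested, Ntrk2 was the 1 that was called, against 1.74% of all genes tested.

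Slc26a10 (ENSMUSG00000040441, mm10 chromosome 10, 127171393 to 127180645, minus strand), of the SLC26 family of anion transporters, stood at 48.5, 57.9 and 47.9 CPM with PTH, 67.1, 68.8 and 69.8 CPM in hypoxia and 2.25, 2.64 and 2.10 CPM in normoxia. The PTH libraries lay far above normoxia and below all hypoxia libraries. The difference from hypoxia did not pass (edgeR adjusted p = 0.426), and 13.9% of genes tested did not overlap between these groups. Against normoxia Slc26a10 had the smallest adjusted p of all genes (log2 fold change 4.46, SE 0.12, edgeR adjusted p = 8.68e-08). B4galnt1, a ganglioside synthesis gene, overlaps it on the other strand at 169% of its mean TPM and was at -0.34 (edgeR adjusted p = 0.181). The counter's use of strand is not given in the sources used here, and reads of overlapping genes could be shared.

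Extracellular matrix genes were among the higher calls in 4 lists. Of 21 elastic fibre and crosslinking genes 4 were called higher, and of 25 collagens 5. Of 21 small proteoglycan and matricellular genes 6 were called higher, and of 21 metalloproteinases and inhibitors 4. The median log2 fold changes of these lists were 0.61, 0.46, 0.36 and 0.31, against -0.01 over all genes. Over all genes tested, 1.27% were called higher and 0.468% lower. In these lists 0 members were called lower, which is near that share for lists of this size. Mfap4 (ENSMUSG00000042436, mm10 chromosome 11, 61485431 to 61488900, plus strand), a microfibril-associated glycoprotein of elastic fibres, stood at 1135, 1095 and 1155 CPM with PTH, 1387, 1123 and 1258 CPM in hypoxia and 254, 329 and 291 CPM in normoxia. That is 1.95 on the log2 scale (SE 0.12, edgeR adjusted p = 1.20e-04). Fn1, fibronectin, stood at 528, 546 and 572 CPM with PTH, 504, 463 and 478 CPM in hypoxia and 264, 301 and 278 CPM in normoxia, so the PTH libraries lay above both other groups (0.96 against normoxia, SE 0.08, edgeR adjusted p = 5.76e-04). For Fn1 the difference from hypoxia did not pass (edgeR adjusted p = 0.515). Aspn, the small leucine-rich proteoglycan asporin, was at 54.4, 62.4 and 78.2 CPM with PTH and 16.8, 12.7 and 16.8 CPM in normoxia (2.08, SE 0.22, edgeR adjusted p = 0.00308). Col6a3, a collagen VI chain, was at 175, 171 and 189.7 CPM with PTH, 155, 122 and 132 CPM in hypoxia and 101, 99 and 74.4 CPM in normoxia (0.96, SE 0.13, edgeR adjusted p = 0.00871). Adam23, a membrane protein of the ADAM family, stood at 26, 25.5 and 36.7 CPM with PTH and 5.93, 5.56 and 5.90 CPM in normoxia (2.34, SE 0.22, edgeR adjusted p = 0.00131).

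Other matrix calls were lost when single libraries were left out. Col3a1, the fibrillar collagen III, was at 501, 535 and 652 CPM with PTH, 417, 218 and 477 CPM in hypoxia and 230.1, 207 and 233 CPM in normoxia, with edgeR adjusted p = 0.0324, lost without PTH replicate 3, 4 or 5 or normoxia replicate 2, 3 or 5, with p up to 0.116. Loxl1, a crosslinking enzyme of elastic fibres, was at 184, 148 and 201 CPM with PTH, 127, 61.3 and 131 CPM in hypoxia and 57.5, 56.8 and 76 CPM in normoxia (adjusted p = 0.0331, lost without PTH replicate 3, 4 or 5 or normoxia replicate 2, 3 or 5, with p up to 0.137). Mmp14, a membrane-bound metalloproteinase, was at 116, 125 and 121 CPM with PTH, 64, 54.2 and 95 CPM in hypoxia and 54.6, 58.9 and 71.5 CPM in normoxia (adjusted p = 0.0345, lost without PTH replicate 3, 4 or 5, hypoxia replicate 1 or normoxia replicate 2 or 3, with p up to 0.126). In all 3, every PTH library lay above every hypoxia library (13.9% of genes tested did not overlap between these groups), but hypoxia with PTH against hypoxia had 0 calls. Eln, tropoelastin, was at 1014, 1905 and 1934 CPM with PTH and 141, 177 and 594 CPM in normoxia (2.41 on the log2 scale, SE 0.80, edgeR adjusted p = 0.189), and did not pass. Without normoxia replicate 2 or 3, or PTH replicate 5, the called elastic fibre genes numbered 2, 2 and 1, and the called collagens 1, 1 and 1. Without PTH replicate 3 or 4, or hypoxia replicate 1, 2 or 5, the collagens numbered 2, 3, 3, 8 and 8. The called proteoglycans numbered 2 without normoxia replicate 2 or PTH replicate 5. The metalloproteinases numbered 1 without normoxia replicate 2 or 3, or PTH replicate 4 or 5.

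Capillary endothelial genes changed in both directions. Of 14 general capillary markers 4 were called lower and 1 higher, and of 14 markers of aerocytes, the capillary cells that cover alveoli, 2 were called lower and 2 higher. The shares over all genes tested were 0.468% lower and 1.27% higher. The aerocyte falls were Ednrb and Cyp4b1, whose values are given in later paragraphs, and the rises were Emcn and Cd34. Cd34 is also in the fibroblast list, and Cyp4b1 in the P450 and Fmo list. Plvap (ENSMUSG00000034845, mm10 chromosome 8, 71497765 to 71511752, minus strand), which forms the diaphragms of endothelial fenestrae, stood at 104, 112 and 158 CPM with PTH, 90.8, 58.6 and 114 CPM in hypoxia and 469, 580.3 and 657 CPM in normoxia (-2.19, SE 0.25, edgeR adjusted p = 0.00490). Esm1, the secreted endothelial proteoglycan endocan, was at 7.04, 5.89 and 10.8 CPM with PTH, 4.33, 4.87 and 5.46 CPM in hypoxia and 70.7, 44 and 34.9 CPM in normoxia. The PTH libraries all lay far below normoxia (-2.66, SE 0.29, edgeR adjusted p = 0.00384). They also lay above all hypoxia libraries, but the difference from hypoxia did not pass (edgeR adjusted p = 0.518). Cd300lg, an endothelial receptor of the CD300 family, fell to 7.28, 10.9 and 13 CPM with PTH, against 37.7, 38 and 35.2 CPM in normoxia (-1.83, SE 0.20, edgeR adjusted p = 0.00287). Emcn, the sialomucin endomucin, was at 117, 81.7 and 93.7 CPM with PTH and 44.6, 47.4 and 40.4 CPM in normoxia (1.14, edgeR adjusted p = 0.00308), and Cd34, another sialomucin, at 234, 236 and 259 CPM with PTH and 132, 113 and 106 CPM in normoxia (1.05, edgeR adjusted p = 0.00344). Without normoxia replicate 3 or PTH replicate 4 or 5, 3 general capillary genes were called, and 4 aerocyte genes were called with each library left out. In bulk lung, fewer cells of a type and less RNA per cell cannot be told apart.

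Arterial and Notch genes split. Cxcl12 (ENSMUSG00000061353, mm10 chromosome 6, 117168535 to 117181367, plus strand), the chemokine that binds CXCR4 and marks arterial endothelium, stood at 655, 365 and 618 CPM with PTH, 549, 422 and 379 CPM in hypoxia and 119, 137 and 116 CPM in normoxia (2.14, SE 0.22, edgeR adjusted p = 0.00287). Dll4, a Notch ligand of tip and arterial endothelium, was at 41.3, 36.2 and 47.1 CPM with PTH, 55, 40.6 and 47.6 CPM in hypoxia and 106, 120.2 and 95.5 CPM in normoxia (-1.37, SE 0.14, edgeR adjusted p = 0.00215). The antisense gene Gm14207, at 18.4% of its mean TPM, was at -1.08 and did not pass (edgeR adjusted p = 0.0597). Of 16 arterial markers 4 were called higher and 1 lower, against 1.27% and 0.468% of all genes tested. Their median was 0.43. The called arterial markers, 5 in all, numbered 2 without normoxia replicate 2 or PTH replicate 5 and 3 without normoxia replicate 3 or hypoxia replicate 5. Of 16 Notch genes 2 were called higher, Heyl and Jag2, and 1 lower, Dll4. The Heyl call (adjusted p = 0.0340) was lost without PTH replicate 3, 4 or 5, hypoxia replicate 1 or normoxia replicate 2 or 3, with p up to 0.123. The Jag2 call (adjusted p = 0.0486) was lost without PTH replicate 4 or 5, hypoxia replicate 1, 2 or 5 or normoxia replicate 2 or 3, with p up to 0.180. In this list, 1 gene was called without normoxia replicate 2 or 3, hypoxia replicate 1, or PTH replicate 4 or 5. Ednrb, the endothelin receptor that also clears endothelin, fell to 77.2, 82.6 and 85 CPM with PTH, against 133, 153 and 141 CPM in normoxia (-0.80, SE 0.10, edgeR adjusted p = 0.00783), while Edn1, its ligand, was at 87, 151 and 238 CPM with PTH and 35.4, 45.9 and 82.7 CPM in normoxia and did not pass (log2 fold change 1.54, edgeR adjusted p = 0.171). Cx3cl1, fractalkine, fell to 28.2, 23.2 and 22.7 CPM with PTH, against 82.2, 89.5 and 61.6 CPM in normoxia (-1.65, SE 0.15, edgeR adjusted p = 0.00142). Of 30 BMP pathway genes, which include the pulmonary hypertension gene Bmpr2, 0 were called by edgeR or limma-voom and 3 by DESeq2, with 9 at an unadjusted p under 0.05, and their median was 0.03. Without PTH replicate 4 edgeR called 2 of them and without PTH replicate 5 it called 1. Bmpr2 itself was at 572, 643 and 696 CPM with PTH and 690.2, 807 and 908 CPM in normoxia (edgeR adjusted p = 0.182).

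**Figure D3:**
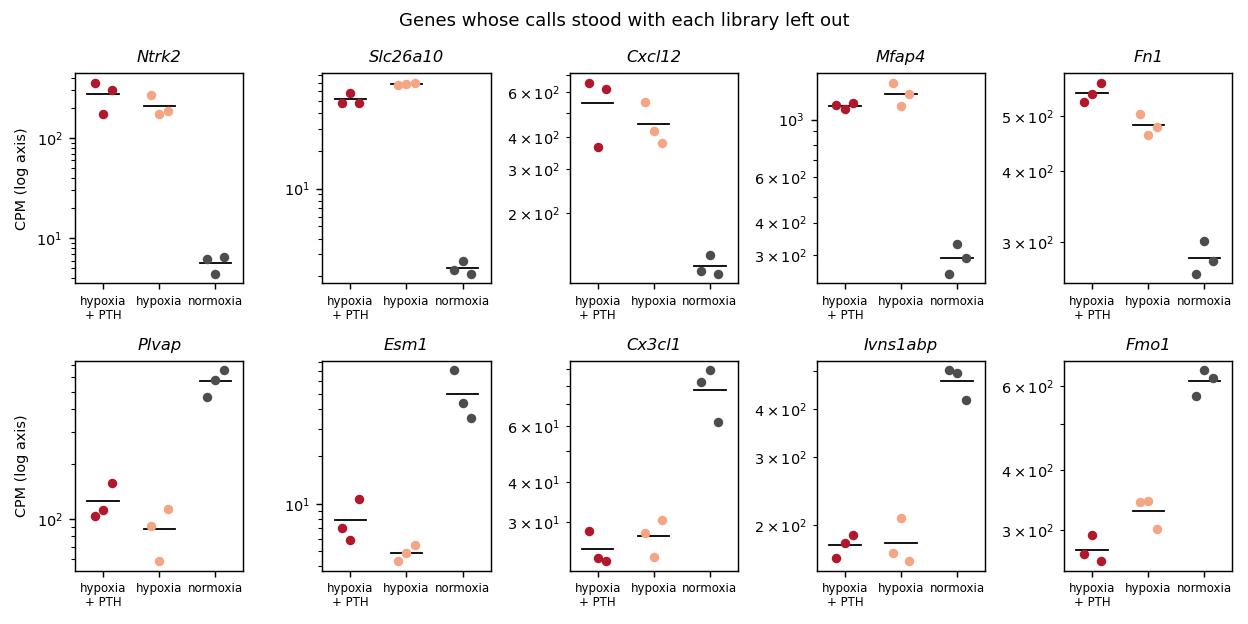
CPM (log axes) of 10 genes whose call stood with each library left out, in each library of hypoxia with PTH, hypoxia and normoxia, with bars at the group means. In each gene the PTH libraries lie wholly above or wholly below the normoxia libraries. The PTH libraries also lie below all hypoxia libraries in Slc26a10 and Fmo1, and above them in Fn1 and Esm1. Of all genes tested, 13.9% did not overlap between hypoxia with PTH and hypoxia, and edgeR called 0 between them.

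Some lymphatic endothelial genes were among the higher calls. Ccl21a, the chemokine that draws CCR7 cells into lymphatics, stood at 162, 154 and 132 CPM with PTH, 125, 106 and 121 CPM in hypoxia and 48.6, 43 and 49.7 CPM in normoxia (1.67, SE 0.10, edgeR adjusted p = 1.20e-04). Ccl21 has near-identical copies, between which the counter could split reads. One of them, Ccl21b, was also called higher (1.68, edgeR adjusted p = 0.00100), and its call with single libraries left out was not examined. Prox1, the transcription factor of lymphatic identity, was at 8.44, 10.6 and 8 CPM with PTH, 7.97, 7.87 and 8.29 CPM in hypoxia and 3.34, 1.97 and 2.95 CPM in normoxia (1.71, SE 0.20, edgeR adjusted p = 0.00468). Lyve1, the hyaluronan receptor that also marks some macrophages, lay the other way, at 106, 361 and 214 CPM with PTH and 604, 832 and 1022 CPM in normoxia, and did not pass (log2 fold change -1.85, edgeR adjusted p = 0.0581). Of 11 lymphatic markers 4 were called higher and 0 lower, with a median of 0.60, and 2 were called without normoxia replicate 2 or 3. Called higher were 1.27% of all genes tested, and called lower 0.468%. In this list 7 members lay above 0 and 4 below. Its summed level, which includes Lyve1, lay the other way from the calls. The sum was 692 to 987 CPM with PTH, 697 to 727 CPM in hypoxia and 1020 to 1426 CPM in normoxia.

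Of 14 pericyte markers 3 were called higher, Higd1b, Cspg4 and Ndufa4l2, and all 14 had a log2 fold change above 0 (median 0.35). Over all genes tested, 47.3% were above 0, 1.27% were called higher and 0.468% lower. Higd1b, a gene of lung pericytes, was at 56.1, 58.7 and 55.1 CPM with PTH and 27.4, 34.1 and 36.8 CPM in normoxia (0.79, SE 0.11, edgeR adjusted p = 0.0110), and it was called with each library left out but not with the clock score (adjusted p = 0.0637). The Cspg4 call (adjusted p = 0.0182) was lost without PTH replicate 5 or normoxia replicate 2 or 3, with p up to 0.0791. The Ndufa4l2 call (adjusted p = 0.0336) was lost without PTH replicate 4 or 5, hypoxia replicate 1 or normoxia replicate 2, 3 or 5, with p up to 0.130, and the gene overlaps Shmt2 on the other strand. The pericyte calls numbered 1 without normoxia replicate 2 or 3 or PTH replicate 5, and 0 with the clock score. Of 18 contractile smooth muscle genes 1 was called, Cald1, the actin-binding caldesmon, at 351, 309 and 326 CPM with PTH and 215, 225 and 235 CPM in normoxia (adjusted p = 0.0143, lost without PTH replicate 5 or normoxia replicate 2 or 3, with p up to 0.0684). Acta2, smooth muscle actin, was at 254, 145 and 175 CPM with PTH and 334, 163 and 174 CPM in normoxia and did not pass (log2 fold change -0.23, edgeR adjusted p = 0.785). Of 19 fibroblast markers 4 were called higher, among them Aspn and Cd34, and without normoxia replicate 2 or 3, or PTH replicate 3 or 5, 2 were called.

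Of the PTH signalling genes tested, 16 in number, Pth1r and Adcy3, an adenylyl cyclase, were called higher and 0 lower (median 0.16). Among all genes tested 1.27% were called higher and 0.468% lower. Pth1r was at 7, 6.42 and 7.22 CPM with PTH, 4.13, 4.85 and 5.42 CPM in hypoxia and 4.07, 4.13 and 3.23 CPM in normoxia. Its call (0.85, edgeR adjusted p = 0.0356) was lost without PTH replicate 3, 4 or 5, hypoxia replicate 2 or normoxia replicate 2, 3 or 5, with p up to 0.137. The Adcy3 call (adjusted p = 0.0250) was lost without PTH replicate 3 or 5 or normoxia replicate 2, 3 or 5, with p up to 0.0959. The count of 2 was 0 with the clock score or the muscle and fat score, 0 without normoxia replicate 2, 3 or 5 or PTH replicate 3 or 5, and 1 without hypoxia replicate 2 or PTH replicate 4. Myl3, a cardiac myosin light chain, overlaps Pth1r on the other strand at 83.1% of its mean TPM. Myl3 was at 0.80 (edgeR adjusted p = 0.722), and whether reads were shared with Pth1r was not tested. Of 16 cyclic AMP feedback and CREB target genes, 1 was called, Pde4a, a phosphodiesterase that degrades cyclic AMP, at 18.8, 15.2 and 16.8 CPM with PTH and 47.5, 45 and 23.1 CPM in normoxia (-1.19, edgeR adjusted p = 0.0418, lost without PTH replicate 3, 4 or 5, hypoxia replicate 1, 2 or 5 or normoxia replicate 2 or 3, with p up to 0.147). Crem, a CREB family gene, was at -0.00 (edgeR adjusted p = 0.997). Of 26 hypoxia-inducible factor targets and glycolysis genes, 1 was called higher, Ndrg1, at 68.2, 73.5 and 121 CPM with PTH and 50.5, 45.8 and 44.9 CPM in normoxia (adjusted p = 0.0496, lost without PTH replicate 4, hypoxia replicate 1, 2 or 5 or normoxia replicate 2, 3 or 5, with p up to 0.138). The list's median was 0.11 and 0 were called lower, and Vegfa was at 0.18 (edgeR adjusted p = 0.533). Gm17035 overlaps Ndrg1 on the other strand at 22.9% of its mean TPM and was at 1.06 (edgeR adjusted p = 0.209).

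Lymphocyte genes lay below normoxia. Of 16 NK and cytotoxic cell markers 6 were called lower and 0 higher, against 0.468% and 1.27% of all genes tested. All 16 had a log2 fold change below 0, while 47.3% of all genes tested lay above 0. The list's summed level was 36.7 to 87.1 CPM in the PTH libraries, 69.4 to 78.5 CPM in hypoxia and 129 to 178 CPM in normoxia. S1pr5, the receptor that lets NK cells leave tissue, was at 1.61, 0.693 and 1.09 CPM with PTH and 5.82, 5.46 and 4.16 CPM in normoxia (-2.19, edgeR adjusted p = 0.0172, lost without PTH replicate 5 or normoxia replicate 2 or 3, with p up to 0.0761). Ccl5, a chemokine of cytotoxic cells, was at 12.7, 7.92 and 6.13 CPM with PTH and 24.6, 20.5 and 29.6 CPM in normoxia (-1.48, edgeR adjusted p = 0.0220, lost without PTH replicate 4 or 5 or normoxia replicate 2, with p up to 0.0691). Klrb1c, an NK cell receptor gene, overlaps Gm44511 on the same strand, and its call (adjusted p = 0.0257) was lost without PTH replicate 5 or normoxia replicate 2, 3 or 5, with p up to 0.102. Without PTH replicate 3, the PTH library highest in this list, 15 of the 16 were called. Without PTH replicate 4, 2 were, without normoxia replicate 5 also 2, without normoxia replicate 3 it was 1, with the clock score 1, and without normoxia replicate 2 or PTH replicate 5 it was 0.

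Of 17 B cell markers 2 were called lower, Spib and Cd37, and all 17 were below 0 (median -1.06). Across all genes tested 0.468% were called lower, 1.27% were called higher and 47.3% lay above 0. The Spib call (adjusted p = 0.0325) was lost without PTH replicate 4 or 5, hypoxia replicate 1 or 2 or normoxia replicate 2 or 5, with p up to 0.137. The Cd37 call (adjusted p = 0.0361) was lost without PTH replicate 4 or 5, hypoxia replicate 1, 2 or 5 or normoxia replicate 2 or 5, with p up to 0.147. The count was 0 with the clock score, 0 without normoxia replicate 2 or 5, PTH replicate 4 or 5, or hypoxia replicate 1 or 2, and 1 without hypoxia replicate 5. Of 21 T cell markers 0 were called by edgeR or limma-voom and 6 by DESeq2 (10 at an unadjusted p under 0.05) at a median of -0.58, and 3 were without PTH replicate 3 and 1 without normoxia replicate 5. Igha, the constant region of IgA, was at 36.4, 25.4 and 42.4 CPM with PTH, 45.6, 42.5 and 62.6 CPM in hypoxia and 101, 92.9 and 107 CPM in normoxia, and its call stood with each library left out (-1.53, SE 0.19, edgeR adjusted p = 0.00783). It was 1 of 16 plasma cell genes to be called, and 2 were without normoxia replicate 3 or PTH replicate 3. Of 16 alveolar macrophage markers 3 were called higher, among them Chil3, at 539.6, 575 and 612 CPM with PTH and 344, 414 and 319 CPM in normoxia (adjusted p = 0.0160, lost without PTH replicate 5 or normoxia replicate 2, with p up to 0.0639), and 1 without normoxia replicate 2, 3 or 5 or PTH replicate 4, and 0 without PTH replicate 5 or with the clock score. Neutrophil markers had a median of -1.21, with 0 of 14 called by edgeR, limma-voom or DESeq2 and 0 at an unadjusted p under 0.05. S100a8 was at 96, 19.4 and 18.2 CPM with PTH and 86.4, 25.7 and 212 CPM in normoxia (edgeR adjusted p = 0.646).

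Airway genes and metabolic enzymes lay low. All 15 secretory cell genes tested were below 0, at a median of -0.90, with 1 called, and 1 of 20 ciliated cell genes was called, at a median of -0.74. Among all genes tested 0.468% were called lower, 1.27% were called higher and 47.3% lay above 0. Scgb1a1, the club cell secretoglobin, was at 19971, 20699 and 20006 CPM with PTH and 30396, 27715 and 28559 CPM in normoxia and did not pass (log2 fold change -0.51, edgeR adjusted p = 0.0591). Cyp2f2, the club cell P450, was called, at 1824, 1531 and 1299 CPM with PTH, 2019.6, 2475 and 2246 CPM in hypoxia and 2838, 2341 and 2596 CPM in normoxia (-0.74, edgeR adjusted p = 0.0304, lost without PTH replicate 4 or 5 or normoxia replicate 2, 3 or 5, with p up to 0.106). Of 15 P450 and Fmo genes 4 were called lower and 0 higher. Fmo1 (ENSMUSG00000040181, mm10 chromosome 1, 162829561 to 162866610, minus strand), a flavin-containing monooxygenase, stood at 267, 292 and 258 CPM with PTH, 343, 344 and 300.4 CPM in hypoxia and 572, 648 and 623 CPM in normoxia (-1.17, SE 0.09, edgeR adjusted p = 3.71e-04). The PTH libraries lay below both other groups, but the difference from hypoxia did not pass (edgeR adjusted p = 0.454). Cyp4b1, a P450 abundant in lung, was at 492, 598 and 572 CPM with PTH, 518, 612 and 552 CPM in hypoxia and 902, 1074 and 1069 CPM in normoxia (-0.87, SE 0.11, edgeR adjusted p = 0.00629). The called P450 and Fmo genes numbered 2 without normoxia replicate 2, 3 or 5 or PTH replicate 5.

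Secretory and ciliated counts moved with single libraries. The secretory count was 0 without normoxia replicate 2 or 3, or PTH replicate 4 or 5, and 2 without PTH replicate 3 or hypoxia replicate 5, and 3 without hypoxia replicate 1 or 2, and the ciliated count was 0 without normoxia replicate 2 or 5 or PTH replicate 5. The airway gene Bpifa1 was at 0.213, 68.5 and 6.51 CPM with PTH and 2149.6, 9.65 and 88 CPM in normoxia, with normoxia replicate 2 far above the rest. Of 16 alveolar type 2 markers 0 were called by edgeR or limma-voom and 6 by DESeq2 (6 at an unadjusted p under 0.05), with 15 above 0, 2 called without normoxia replicate 5 and 1 without hypoxia replicate 5, and the summed level was 27563 to 31278 CPM with PTH and 23199 to 27034 CPM in normoxia. Of 21 sterol and fatty acid synthesis genes 0 were called by edgeR or limma-voom and 3 by DESeq2 (9 at an unadjusted p under 0.05), with 20 above 0, 2 called without normoxia replicate 5 and 1 without PTH replicate 4. Across all genes tested 47.3% lay above 0 and 17.2% had an unadjusted p under 0.05.

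**Figure D4:**
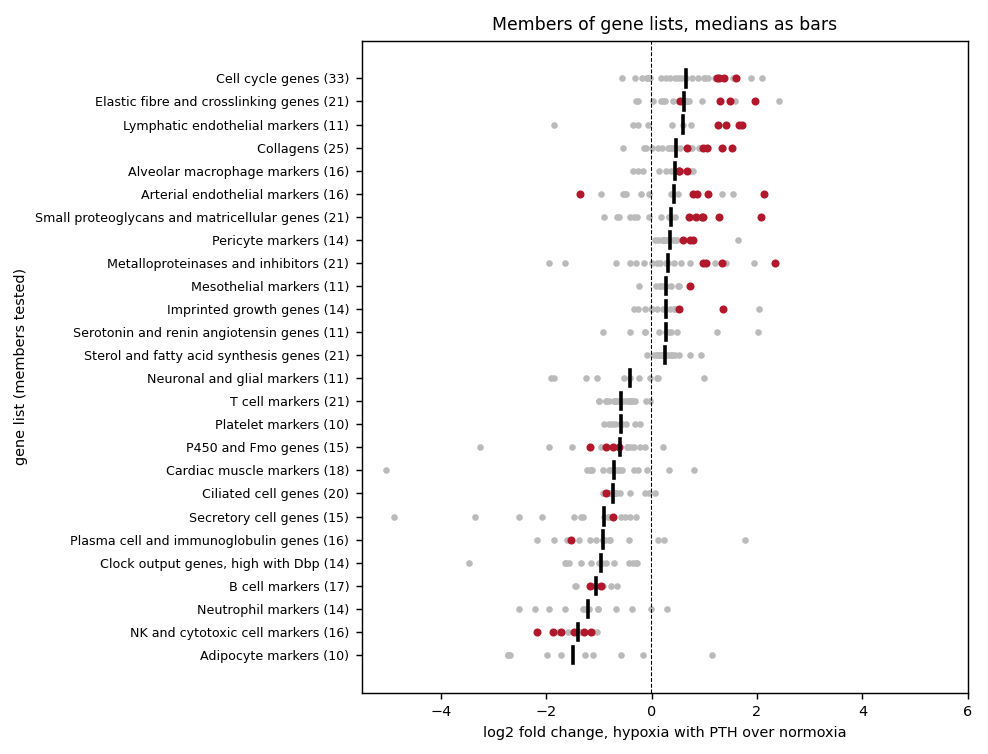
Log2 fold change of hypoxia with PTH over normoxia for each member of 26 gene lists, the 13 with the highest and the 13 with the lowest medians among lists with at least 10 tested members; red points passed the test and black bars are medians. The dashed line is the median of all genes tested, -0.01, and NK markers sit below it and elastic fibre genes above it.

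Proliferation genes were above normoxia in number, though few passed. Of 33 cell cycle genes 24 had a log2 fold change above 0 (median 0.66), and Cdc20, Kif20a, Ccna2 and Aurkb were called higher, 0 lower. Among all genes tested 47.3% lay above 0, 1.27% were called higher and 0.468% lower. Cdc20, which activates the anaphase-promoting complex, was at 6.03, 7.62 and 7.26 CPM with PTH, 6.73, 4.72 and 6.48 CPM in hypoxia and 2.44, 3.45 and 2.99 CPM in normoxia (adjusted p = 0.0196, lost without PTH replicate 4 or 5 or normoxia replicate 2 or 3, with p up to 0.0731). The Kif20a call (adjusted p = 0.0237) was lost without PTH replicate 4 or 5 or normoxia replicate 2 or 3, with p up to 0.0771. The Ccna2 call (adjusted p = 0.0402) was lost without PTH replicate 3, 4 or 5, hypoxia replicate 1 or normoxia replicate 2 or 3, with p up to 0.130. The Aurkb call (adjusted p = 0.0479) was lost with each of the 9 libraries left out in turn, with p up to 0.136. Mki67, the proliferation antigen, was at 15.7, 14.1 and 14.3 CPM with PTH, 12.2, 4.85 and 8.95 CPM in hypoxia and 3.12, 4.18 and 7.89 CPM in normoxia, with no overlap of the PTH and normoxia libraries, but did not pass (log2 fold change 1.54, edgeR adjusted p = 0.0784). Cdc20, Kif20a and Ccna2 overlap Elovl1, Cdc23 and Exosc9 on the other strand, which stood at higher mean TPM and were not called. The count was 0 with the clock score, 0 without normoxia replicate 2 or 3 or PTH replicate 4 or 5, and 2 without hypoxia replicate 1 or PTH replicate 3.

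Growth factor genes were called in both directions. Of 14 IGF system genes 2 were called higher and 1 lower. Of 22 TGF beta and activin genes 2 were called higher and 0 lower. The shares over all genes tested were 1.27% higher and 0.468% lower. The IGF count was 1 without normoxia replicate 2 or 3 or PTH replicate 5. The TGF beta count was 0 without normoxia replicate 2 or PTH replicate 5. With the clock score both counts were 0. Igfbp2, an IGF-binding protein of alveolar type 1 cells, was at 389.6, 412 and 458 CPM with PTH, 377, 215 and 345 CPM in hypoxia and 151, 177 and 142 CPM in normoxia (1.42, edgeR adjusted p = 0.0100), and its call was lost without normoxia replicate 2, with p up to 0.0526. Igfbp4, another IGF-binding protein, lay the other way, at 154, 199 and 162 CPM with PTH and 261, 295 and 279 CPM in normoxia (-0.70, edgeR adjusted p = 0.0418). The Igfbp4 call was lost without PTH replicate 3 or 5, hypoxia replicate 2 or normoxia replicate 2, 3 or 5, with p up to 0.169. Tgfbr2, the type 2 TGF beta receptor, was at 409, 359 and 395 CPM with PTH and 269, 283 and 231 CPM in normoxia (adjusted p = 0.0269, lost without PTH replicate 3 or 5 or normoxia replicate 2, 3 or 5, with p up to 0.102). Ivns1abp, an actin-binding kelch protein, was at 164, 180.3 and 189 CPM with PTH, 170.0, 208 and 162 CPM in hypoxia and 504, 494 and 422 CPM in normoxia (-1.41, SE 0.12, edgeR adjusted p = 5.76e-04). All 6 hypoxic libraries lay below every normoxia library.

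**Figure D5:**
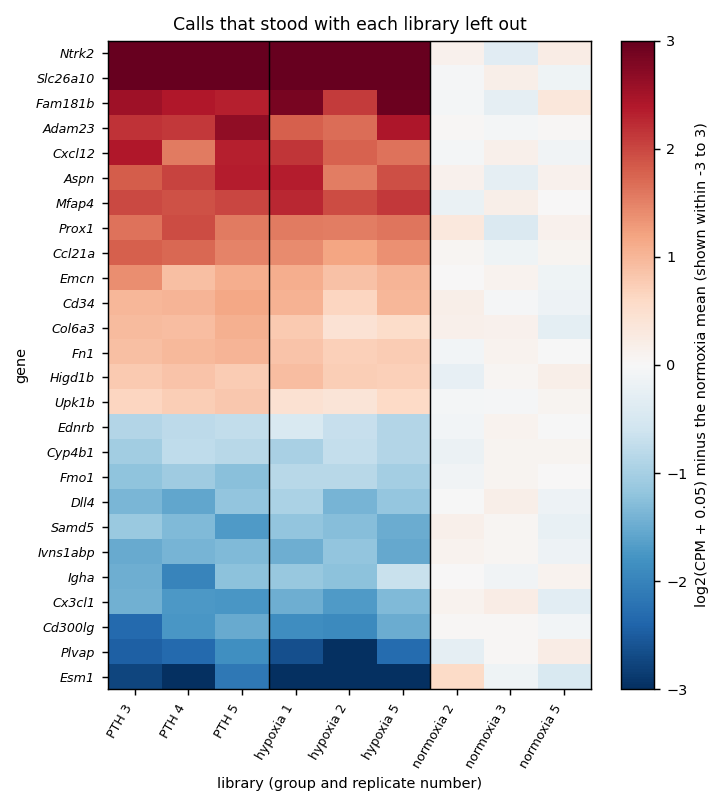
Log2(CPM + 0.05) minus the normoxia mean, for the 26 genes whose call stood with each library left out, in the 9 libraries ordered as hypoxia with PTH, hypoxia and normoxia, with colour limits of -3 and 3. Within each gene the 3 PTH columns lie on the same side of the normoxia mean, and the hypoxia columns lie on that side too.

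The hypoxia group shares the normoxia libraries with the comparison above, so its values are set beside it and no overlap is drawn. Against normoxia, hypoxia alone had 112 calls (0.57%), 81 higher (0.412%) and 31 lower (0.158%), and hypoxia with PTH against hypoxia had 0 calls by edgeR, with 1828 genes (9.31%) at an unadjusted p under 0.05, and 156 by DESeq2 and 0 by limma-voom. Slc26a10 had log2 fold changes of 4.46 for hypoxia with PTH and 4.87 for hypoxia, each against normoxia. Fn1 had 0.96 with PTH and 0.78 in hypoxia. Plvap had -2.19 with PTH and -2.70 in hypoxia, and Esm1 had -2.66 with PTH and -3.35 in hypoxia. Clmp, a junction protein gene, had 1.74 with PTH and 0.64 in hypoxia, with every PTH library above every hypoxia library (25, 20.2 and 24.8 CPM with PTH and 8.16, 7.69 and 16.7 CPM in hypoxia). Il1r1, the interleukin 1 receptor, had 0.51 with PTH and -0.07 in hypoxia, at 64.8, 58.2 and 60.6 CPM with PTH, 41.6, 38.3 and 43.7 CPM in hypoxia and 39.3, 47 and 43 CPM in normoxia. Cfap161, a ciliary protein gene, had -0.86 with PTH and -0.04 in hypoxia, and none of these 3 differences between hypoxia with PTH and hypoxia passed the test. For hypoxia with PTH against normoxia, the Clmp call (adjusted p = 0.0317) was lost without PTH replicate 3, 4 or 5 or normoxia replicate 2 or 3, with p up to 0.109. The Il1r1 call (adjusted p = 0.0246) was lost without PTH replicate 3 or 5 or normoxia replicate 2 or 5, with p up to 0.0820. The Cfap161 call (adjusted p = 0.0267) was lost without PTH replicate 3 or 5 or normoxia replicate 2 or 5, with p up to 0.106.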

How the data were processed

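Per the labels' protocols, poly(A) RNA of whole lung went into a directional library. Trimmomatic 0.39, STAR 2.7.9a and mm10 are named per the submitters' processing notes, while for the counter, its strand setting and its annotation the sources used here give nothing. The authors' table has 53342 genes, with deposited estimated counts (11.4% of those above 0 whole) and normalized values that the authors deposited as log2 TPM, with a floor of 1 TPM. Even numbers made up 88.8% of whole counts of 1 to 20, so both mates of a pair may have been counted. Counts were rounded and fitted with edgeR 4.0.16 under R 4.3.3, scaled by TMM, filtered by filterByExpr at a minimum of 10 counts (total 15), and tested by the robust quasi-likelihood F test, in 1 model of 9 samples and 3 groups with 6 residual degrees of freedom. The median SE of a log2 fold change was 0.17, and the common biological coefficient of variation was 0.204. An exact permutation test of 3 against 3 cannot give a p under 0.1. Overlaps used the deposited coordinates. The pipeline was tested on simulated data.

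The named genes were Pth1r, the 15 largest rises and 15 largest falls among called genes with no overlap and at least 5 CPM in the higher group (predicted genes, pseudogenes and receptor segments left out), and up to 4 called members of each of 62 lists by p. The comparison, the lists and the rule were chosen with earlier results of these data known. Newer symbols were matched through RefSeq synonyms. Counts of list members used the fit across all genes, with p adjusted over all genes.

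Alternatives were DESeq2 size factors, upper quartile scaling, totals only, no or a stricter filter (mean of 5 CPM), DESeq2 1.42.0, limma-voom 3.58.1, the 6 samples alone, the replicate number as a block, each library left out, normoxia replicates 2 and 3 left out, a clock score, a muscle and fat score (both from log2 CPM with prior count 2), and a threshold of 0.1. Promoters came from RefSeq (GRCm38.p6), and 16 of the 26 genes called with each library left out had 1 entry.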

Additional observations from a re-analysis of the deposited data

How the results depend on the processing

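Against 341 calls (249 higher, 92 lower) between hypoxia with PTH and normoxia, the DESeq2 test called 1422 (786 higher, 636 lower), a threshold of 0.1 called 833, the 6 samples alone called 230 (177 higher, 53 lower), the clock score left 76 (49 higher, 27 lower), the muscle and fat score 151 (109 higher, 42 lower), and leaving out normoxia replicates 2 and 3 left 4 (3 higher, 1 lower). Scaling by DESeq2 size factors, upper quartile or totals, the filters and limma-voom gave 282 to 451 calls. With 1 library left out, calls ran from 81 to 359, higher calls from 52 to 268 and lower calls from 21 to 129. For hypoxia against normoxia the 112 calls became 795 by DESeq2 and 50 to 158 with 1 library left out, and for hypoxia with PTH against hypoxia the 0 calls became 156 by DESeq2 and 0 to 1. The share of calls that were higher was 73.0% and was 55.3% with DESeq2. The causes were not tested.

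The replicate numbers of the labels gave 5 same-numbered pairs, with residual correlations of -0.097 to 0.143. Correlations over so few pairs cannot settle whether the numbers pair the libraries. The replicate block left 17 calls (15 higher, 2 lower) for hypoxia with PTH, and 8 for hypoxia against normoxia, with few residual degrees of freedom. All 91 named genes kept their sign in every alternative, and 642 of their 1904 values missed the threshold. The 91 were chosen as called in these same libraries, so the kept signs are no separate evidence.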

Other observations

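Several genes and gene families outside the lists were looked up after the values had been seen, and are given as values with no test of the family. Scn7a, a sodium channel of the voltage-gated family, stood at 607, 497 and 453 CPM with PTH, 543, 484 and 442 CPM in hypoxia and 249.9, 245 and 239 CPM in normoxia (1.09, SE 0.12, edgeR adjusted p = 0.00287). Olfr78, an olfactory receptor gene also known from oxygen-sensing carotid body cells, was at 2.58, 2.33 and 2.46 CPM with PTH, 2.33, 1.40 and 2.87 CPM in hypoxia and 0.0751, 0.104 and 0.0867 CPM in normoxia (4.75, SE 0.36, edgeR adjusted p = 3.71e-04). The higher call Olfr560 overlaps Olfr78 on the same strand, so reads could be shared. Of 14 olfactory receptor genes tested, these 2 were called, against 1.74% of all genes tested. Hoxd4, Hoxd8 and Hoxd9, the 3 genes of the HoxD cluster tested, were all called higher at low levels (edgeR adjusted p = 0.0223, 0.0283 and 0.0145). Hoxd9 was at 1.47, 1.76 and 2.01 CPM with PTH and 0.319, 0.207 and 0.434 CPM in normoxia. Whether the calls in this section stood with each library left out was not examined.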
